A study of Mus musculus with 2 samples.

Results

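Among 21535 protein-coding genes of the mouse, 2753 had a 5' end that no peak of histone H3 trimethylated at lysine 4 (H3K4me3) covered, although a peak lay close by on each side of it. These starts were chosen by the positions of the called peaks. A 5' end was kept when no peak of either replicate covered it and when, in both replicates, a peak ended within 1000 bp upstream and another began within 1000 bp downstream, read along the gene's strand. The members were thus selected on the readout itself, and everything given on their gaps and flanks is a description of 2 libraries without a test. They made up 12.8% of all protein-coding 5' ends with a known strand, and 27.2% of the 10133 ends that had a peak over them or within 1000 bp in both replicates. In the other genes, the start was covered in both replicates at 4311, had a peak on its downstream side alone at 580 and on its upstream side alone at 132, had no peak within 1000 bp at 11156, and differed between the replicates at 2603.

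The chromatin came from MEL cells, an immortalised mouse erythroleukaemia line kept as transformed red cell precursors, which had been given 2% dimethyl sulphoxide (DMSO) for 5 days. DMSO is known to drive such cells toward haemoglobin-making red cells. H3K4me3 was mapped by ChIP-seq in 1 group of 2 samples, labelled biological replicates 1 and 2 and listed under the same biosample record, and the labels do not say whether they were separate cultures. The spread between them may therefore be technical. Untreated cells were not analysed here. Per the labels, the fragments were 150 to 350 bp long.

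H3K4me3 is written by the SET1 and MLL families of methyltransferases on the nucleosomes around active and poised promoters. Where transcription starts, the general transcription factors and RNA polymerase II occupy DNA that holds few nucleosomes, and the marked nucleosomes stand on either side of it. The nucleosomes that follow the start into the gene are as a rule more heavily marked than those before it, except where a gene on the opposite strand starts from the same open stretch. A peak list can show this arrangement as a pair of peaks with an uncovered stretch, here called the gap, between them. A gap is a stretch with no called peak, and the amount of signal inside it was not analysed here.

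The uncovered bases just before the start are printed for 8 members, to show what kind of DNA lay between the peaks. The first 6 are the named members on the chromosomes used for sequence with the highest values of the weaker flank among those with a RefSeq promoter at the gene's 5' end and 40 to 250 uncovered bases free of another gene. Hbb-bt and Tfrc were added after their values were seen, as genes of red cell function. Each is read 5' to 3' on the gene's strand, ends at the base before the start and holds only bases that lay in the gap of both replicates. Sequences are those of RefSeq on GRCm38.p6. Capitals mark matches, on either strand, to any of 9 short promoter motifs, whose letters are spelled out below beside the share of promoters that hold each. None of these strings contains another, but matches can overlap by some bases.
Rab10 (small GTPase of vesicle traffic, chr12:3309970-3310174, minus strand): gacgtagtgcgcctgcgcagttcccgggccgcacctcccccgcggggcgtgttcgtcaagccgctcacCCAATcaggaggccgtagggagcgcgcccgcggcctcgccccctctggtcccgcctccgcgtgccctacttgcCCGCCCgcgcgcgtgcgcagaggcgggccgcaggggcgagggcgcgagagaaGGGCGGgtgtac
Kdm7a (histone demethylase, chr6:39206774-39206878, minus strand): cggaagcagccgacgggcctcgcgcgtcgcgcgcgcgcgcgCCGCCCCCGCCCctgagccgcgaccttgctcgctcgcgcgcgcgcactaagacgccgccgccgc
Sf3b2 (splicing factor, chr19:5295458-5295625, minus strand): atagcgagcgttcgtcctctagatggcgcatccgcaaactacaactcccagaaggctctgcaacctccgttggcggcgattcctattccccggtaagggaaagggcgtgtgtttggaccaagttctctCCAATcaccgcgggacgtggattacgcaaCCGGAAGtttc
Rpl10 (ribosomal protein, chrX:74270613-74270815, plus strand): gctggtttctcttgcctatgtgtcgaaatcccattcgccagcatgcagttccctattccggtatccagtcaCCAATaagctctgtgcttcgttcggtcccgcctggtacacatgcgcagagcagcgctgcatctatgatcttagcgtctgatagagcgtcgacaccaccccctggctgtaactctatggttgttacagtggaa
Add1 (adducin of the membrane skeleton, chr5:34573623-34573663, plus strand): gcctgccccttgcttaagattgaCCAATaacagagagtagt
H1f2 (linker histone, chr13:23738735-23738806, plus strand): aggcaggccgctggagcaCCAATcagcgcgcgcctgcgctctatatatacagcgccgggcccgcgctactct
Hbb-bt (adult β-globin, chr7:103813924-103814107, minus strand): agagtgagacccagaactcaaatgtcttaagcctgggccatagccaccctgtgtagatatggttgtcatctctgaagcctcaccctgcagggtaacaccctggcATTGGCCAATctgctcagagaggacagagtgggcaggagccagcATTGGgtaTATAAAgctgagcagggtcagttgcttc
Tfrc (transferrin receptor, chr16:32608768-32608895, plus strand): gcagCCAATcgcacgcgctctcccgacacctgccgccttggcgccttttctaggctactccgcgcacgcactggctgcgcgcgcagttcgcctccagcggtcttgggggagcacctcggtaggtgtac
A CCAAT match stood in 7 of the 8, all but Kdm7a. Hbb-bt and Tfrc, added after their values were seen, are among these 7. Of the 2313 members with promoter sequence, 49.8% held a CCAAT match. That share was read in another window, from 250 bases before to 50 bases after a RefSeq start. The 8 printed stretches therefore do not show how frequent the match is in gaps. In Hbb-bt a CCAAT match began 75 bases before the start and a TATA match 28 bases before it, the layout known of adult globin promoters. In H1f2 the CCAAT match began 54 bases before the start. In Rab10 GC box matches began 64 and 12 bases before the start and the CCAAT match 137 bases before it. Rab10 had 31 CpG dinucleotides in its 205 bases, and Hbb-bt had 0 in 184. Such a match is a string of letters and does not show that a factor was bound.

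The peaks began closer to the start on its downstream side and ran farther into the gene than away from it. At 100 bp upstream, 35.1% of members had a peak in replicate 1 and 43.8% in replicate 2, and at 100 bp downstream 62.5% and 82.0%. At 300 bp upstream, 89.6% of members had a peak in replicate 1 and 91.5% in replicate 2. At 300 bp downstream the shares were 86.5% and 94.9%. At 1000 bp upstream they were 43.95% and 42.4%, whereas at 1000 bp downstream 78.7% and 79.8% of members still had a peak. Starts covered in both replicates had a shallow dip of their own, since 78.6% had a peak 70 bp upstream in replicate 1 and 83.6% had a peak 100 bp upstream in replicate 2. At 668 of these 4311 covered starts (15.5%), the covering peak began at most 150 bp upstream in both replicates and was separated from the next peak by a gap under 1000 bp. Those gaps had a median size of 148 bp in replicate 1 and 125 bp in replicate 2 and lay a median of 24 and 34 bp before the start. The annotated position of the 5' end thus decides by a few bases whether such a gene is counted among the members.

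**Figure D1:**
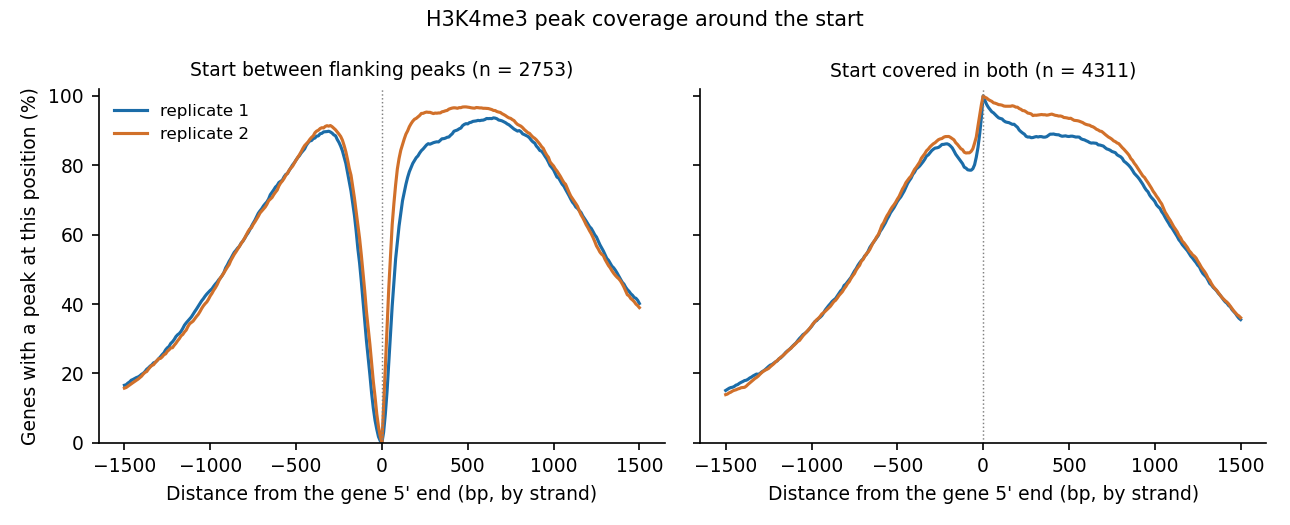
Share of genes with a called peak (y axis, percent) at each distance from the gene's 5' end (x axis, bp, read along the strand, steps of 10 bp), for the 2753 members (left) and the 4311 starts covered in both replicates (right), with a line for each replicate. Members are at 0 at the start by choice, reach 89.6% and 91.5% at 300 bp upstream, and stay at 78.7% and 79.8% at 1000 bp downstream.

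The gap was usually about as long as the DNA of a nucleosome or somewhat longer. In replicate 1 the gap had a median of 220 bp, with quartiles of 158 and 326 bp and a range of 37 to 1937 bp. In replicate 2 the median was 170 bp, with quartiles of 115 and 242 bp and a range of 37 to 1777 bp. The mean of the 2 medians was 195 ± 35.4 bp (SD, n = 2). No peaks of any mm10 set lay closer together than 37 bp, so the lower bound is that of the peak lists and narrower gaps could not appear. Gaps between 150 and 350 bp, the size range of the fragments, made up 56.4% of members in replicate 1 and 49.7% in replicate 2. Whether fragment size bears on gap size was not tested.

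The gap did not sit evenly over the start. Its upstream edge lay a median of 126 bp from the 5' end in replicate 1 and 113 bp in replicate 2, and its downstream edge 76 and 47 bp. It reached farther upstream than downstream at 65.5% of members in replicate 1 and 74.9% in replicate 2. All flanks lay within 200 bp of the start in both replicates at 1768 members (64.2%) and within 500 bp at 2644 (96.0%).

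The replicates placed the upstream edge more alike than the downstream edge. Across members, which are not independent replicates, the upstream distances had a Pearson correlation of 0.896 and differed by a median of 17 bp. The downstream distances had a correlation of 0.636 and differed by a median of 24 bp. Gap sizes had a Pearson correlation of 0.789 and a Spearman correlation of 0.738. The gap was the larger in replicate 1 at 2221 members (80.7%). Replicate 1 also split more starts: 4579 were flanked on both sides in replicate 1 and 3041 in replicate 2. Members were 60.1% of the first number and 90.5% of the second. At 1787 starts a gap in replicate 1 met a covering peak in replicate 2, and at 180 starts the reverse held. Narrow gaps of replicate 1 were met again less often than wide ones. Of its gaps under 100 bp, 30.6% of 572 belonged to members, against 72.4% of 718 gaps of 250 to under 350 bp. Sequencing depth is unknown, and its part in this difference was not tested.

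**Figure D2:**
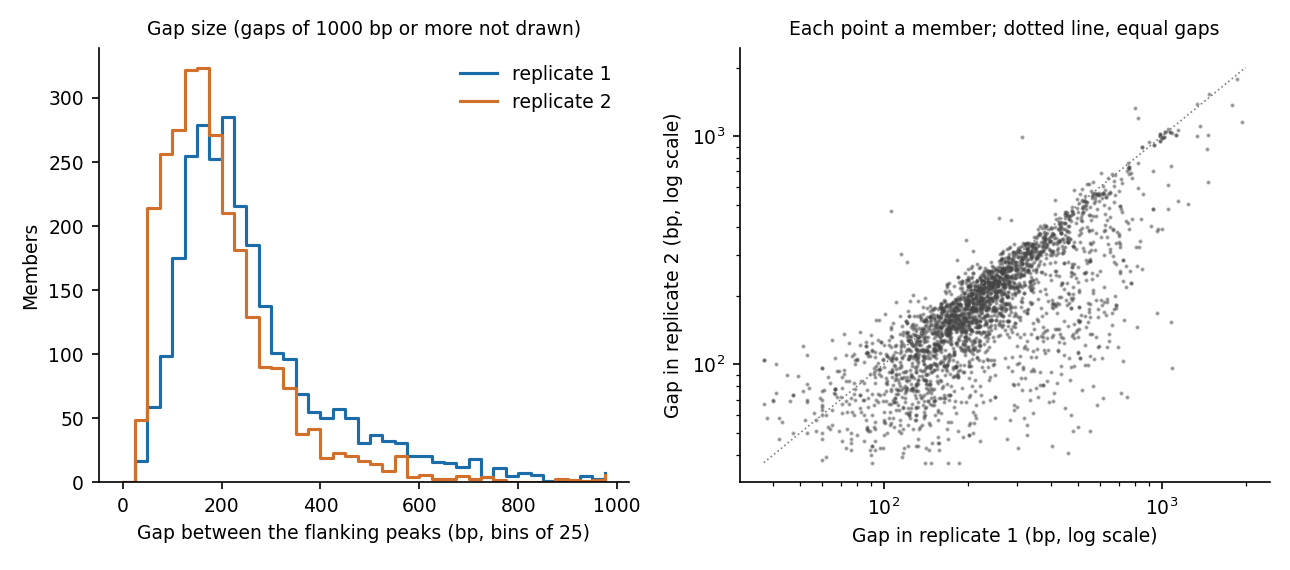
Left, number of members (y axis) by gap size (x axis, bp, bins of 25 bp) in each replicate. Right, gap of each of the 2753 members in replicate 1 (x axis, bp, log scale) and replicate 2 (y axis, bp, log scale). Replicate 1 (median 220 bp) lies to the right of replicate 2 (median 170 bp), and most points fall below the dotted line of equal gaps.

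The 2 peaks beside a start were unequal, and the downstream one was more often the stronger and the wider. The strength of a peak is the authors' signal value, whose scale they do not state. The upstream flank had a median signal value of 8.91 in replicate 1 and 9.67 in replicate 2, and the downstream flank 10.8 and 12.6. The upstream flank had a median width of 697 and 717 bp and the downstream flank 1085 and 1193 bp. On the log2 scale, the ratio of downstream to upstream value had a median of 0.29 in replicate 1 and 0.37 in replicate 2. The downstream value was the higher in both replicates at 1520 members (55.2%, 95% Wilson interval 53.3% to 57.1%, counting error only). The upstream value was the higher in both at 496 (18.02%), and the replicates differed in the order at 737 (26.8%). The downstream flank was the wider in both replicates at 1849 members (67.2%, 65.4% to 68.9%) and the upstream flank at 449 (16.3%). A downstream excess of over 2-fold in both replicates was found at 297 members and an upstream excess of that size at 25.

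Gaps elsewhere in genes showed no such lean. The same reading was made at 2625 gaps between neighbouring peaks inside genes, more than 2000 bp from any protein-coding 5' end. There the downstream value was the higher in both replicates at 36.2% and the upstream value at 37.4%, and the downstream peak was the wider in both at 39.4% and the upstream one at 37.8%. These gaps were of similar size, with a median of 182 bp in replicate 1 and 165 bp in replicate 2, but their peaks were weaker, at median values of 4.98 and 5.07 upstream and 4.75 and 4.80 downstream. At 3' ends that far from any start, 12 gaps met the rule, too few to compare, and 41.7% of them had the higher value downstream in both replicates and 41.7% the wider peak. The members' share of 55.2% stood above the 36.2% of gaps inside genes. Both the members and these gaps were chosen by peak position and not by the value of either flank, and no test was made over genes of 2 samples.

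The lean was smaller over the members where a gene on the opposite strand started nearby, in part by construction. A protein-coding gene that began within 1000 bp upstream and ran the other way, a divergent neighbour, was present at 515 members. With a divergent neighbour, the downstream value was the higher in both replicates at 35.1% (31.1% to 39.4%) and the upstream value at 32.6%, and the median log2 ratio was 0.04 in replicate 1 and 0.00 in replicate 2. Without such a neighbour, at 2238 members, the shares were 59.8% (57.8% to 61.8%) and 14.7%, and the median log2 ratio was 0.37 and 0.48. The upstream flank was also stronger and wider beside a divergent neighbour, with a median value of 10.9 in replicate 1 and 11.6 in replicate 2 against 8.53 and 9.11 without one, and a median width of 1058 and 1107 bp against 627 and 635 bp. For 320 of the 515, the partner's start lay in the same gap, so that both genes are members and the 2 orders occur equally often by construction, at 34.1% each. These 320 cannot show a lean, and the shares and intervals of the 515 include them. The near-equal shares of the 515 therefore do not show that the lean is absent beside a divergent neighbour. In all, the 2753 members shared 2559 distinct gaps, and 187 of these gaps held starts of both strands. Swt1 and Trmt1l are such a pair, 2 genes of RNA processing. Their starts lie 45 bp apart on chromosome 1 in a gap of 222 bp in replicate 1 and 147 bp in replicate 2. The peak on the Trmt1l side had a value of 26.5 in replicate 1 and 13.3 in replicate 2, and the peak on the Swt1 side 22.7 and 11.6.

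**Figure D3:**
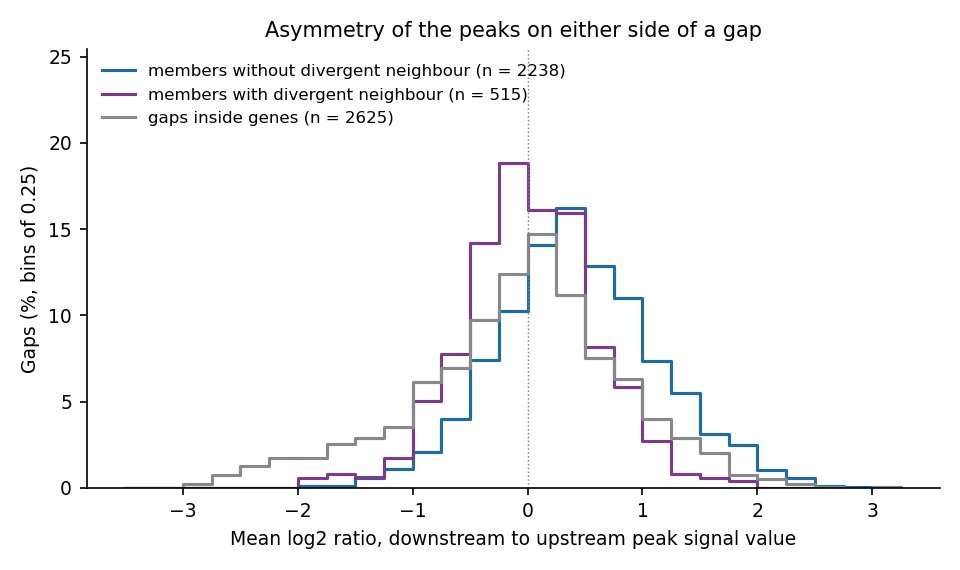
Share of gaps (y axis, percent, bins of 0.25) by the log2 ratio of downstream to upstream signal value, averaged over the replicates (x axis), for 2238 members without a divergent neighbour, 515 members with one and 2625 gaps inside genes. The first curve lies to the right of 0 and the other two are centred near 0. Of the 515 members, 320 share the gap with their partner, so that curve is in part symmetric by construction.

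Divergent neighbours were more frequent, and CpG dinucleotides more numerous, at members than at starts that were covered. The rule asks for a separate peak upstream of each member, which a divergent neighbour's own peak can supply. Covered starts need no such peak, and starts with a peak downstream alone lack one by definition. The order of the shares with a divergent neighbour is thus in part set by the rule. A divergent neighbour was present at 18.7% of members (17.3% to 20.2%), at 12.9% of covered starts (11.9% to 13.9%), at 12.9% of starts with a peak on the upstream side alone (8.20% to 19.7%), at 1.38% of starts with a peak on the downstream side alone and at 1.03% of starts without a peak. The strongest peak within 1000 bp was of like height in both classes, with a median value of 12.8 in replicate 1 and 13.4 in replicate 2 at members and 12.4 and 14.01 at covered starts. Promoter sequence was read from 250 bases before to 50 bases after the RefSeq start nearest each gene's 5' end, a choice made after the data were seen. It was found for 2313 members (84.0%) and 3508 covered starts (81.4%). The median GC content was 62.3% at members and 59.7% at covered starts, the median count of CpG dinucleotides in 300 bases was 24 and 19, and the observed to expected CpG ratio was 0.848 and 0.750. At 8997 starts without a peak it was 0.257.

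Several promoter strings were more frequent at members than at covered starts. A GC box (GGGCGG), the binding sequence of the SP family, was present in 76.0% of members (74.2% to 77.7%) and 61.2% of covered starts (59.6% to 62.8%), against 35.7% of all 32851 promoters in the RefSeq table. A CCAAT box (the letters CCAAT), bound by the trimeric factor NF-Y, was present in 49.8% of members (47.8% to 51.8%), 36.3% of covered starts (34.7% to 37.9%) and 37.4% of all promoters. The motif of NRF1, a factor of mitochondrial and housekeeping genes, is GCATGCGC and stood in 8.30%, 5.30% and 2.71%. The ETS motif (CCGGAAG) was as frequent at members (21.5%) as at covered starts (21.7%), and stood in 8.86% of all promoters. A TATA box (TATAAA) was present in 6.05% of members, 6.76% of covered starts and 13.6% of all promoters. The GATA motif (AGATAA), bound by the GATA1 factor of red cells among others, stood in 5.36%, 6.98% and 11.2%. The YY1 motif (AAGATGGC) stood in 5.23%, 5.30% and 2.75%. The cyclic AMP response element (TGACGTCA) stood in 4.28%, 3.28% and 1.79%. An E-box (CACGTG) stood in 11.7%, 9.21% and 7.15%.

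CCAAT boxes were more frequent at wide gaps. With members ranked by mean gap and split into 4 groups of 578 or 579, a CCAAT box was present in 41.1% of the narrowest group (37.2% to 45.2%), 44.6% of the second, 52.9% of the third and 60.6% of the widest (56.5% to 64.5%). The groups ended at mean gaps of 140.5, 203 and 288 bp. Without the histone genes described below, the widest group stood at 58.8%. A GC box was present in 68.4%, 74.6%, 81.5% and 79.6% of the same groups. The ETS motif stood in 23.1%, 25.8%, 22.3% and 14.7%, with the lowest share in the widest group. The median GC content was 60% in the narrowest group and 64.3% in the widest, and its part in these shares was not tested. Where a matched string stood was also uneven. At the 1220 members whose 5' end is itself a RefSeq start, 53.7% of the promoter bases lay in the gap of both replicates. The gap held 82.6% of 1258 CCAAT matches, 83.6% of 61 cyclic AMP response elements, 77.1% of 157 NRF1 matches and 72.2% of 2144 GC boxes. It held 37.9% of 66 GATA matches and 35.5% of 62 YY1 matches. Of 30011 CpG dinucleotides in these promoters, 61.9% lay in the gap. Gaps are centred near the start, and whether a string's distance from it bears on these shares was not tested.

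Whether the 5' end of the gene table was the start in use can be read in part from the RefSeq promoter table, which holds curated starts. A table start was known for 2313 members, and for 1775 (76.7%) at least 1 such start lay in the gap of both replicates. For the other 538, every table start lay outside it, at a median of 85.5 bp downstream of the 5' end for the nearest start, and for 271 of them a table start was covered in both replicates. When all 21263 table starts were read in place of the gene's end, 2354 were flanked in both replicates, with median gaps of 224.5 and 170 bp.

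The share of members differed among the gene lists, against 12.8% of all genes. Histone genes had the highest share, with 42 of 67 (62.7%, 50.7% to 73.3%). Splicing factor genes had 13 of 32 (40.6%), genes of cytosolic ribosomal proteins 33 of 85 (38.8%, 29.2% to 49.5%) and of translation initiation factors 20 of 56 (35.7%). Heme and iron genes had 7 of 21 (33.3%, 17.2% to 54.6%), RAB genes 22 of 69, oxidative phosphorylation genes 28 of 96, chromatin writers and erasers 18 of 62 and red cell membrane genes 6 of 22. Kinesins had 10 of 38, proteasome genes 12 of 51 and mitochondrial ribosomal proteins 17 of 78. Solute carriers had 44 of 375 (11.7%), zinc finger genes 40 of 396 (10.1%) and erythroid transcription factors 2 of 18. Since a member needs peaks, shares among genes with a peak in both replicates are the closer comparison, with 27.2% over all. They were 72.4% for histones, 43.3% for splicing factors, 40.7% for ribosomal proteins and for RAB genes, 40% for kinesins and for globins, 39.2% for translation initiation factors and 36.8% for heme and iron genes. They were 32.7% for chromatin writers and erasers, 32.2% for oxidative phosphorylation genes, 30% for red cell membrane genes and 25.5% for proteasome genes. They were 23.4% for solute carriers, 22.7% for mitochondrial ribosomal proteins, 15.04% for zinc finger genes and 12.5% for erythroid transcription factors. No list was tested.

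Genes of heme synthesis and iron uptake lay among the members at 4 enzymes, the importer of transferrin, an exporter of heme and a ferritin chain. Tfrc, the transferrin receptor, had a gap of 254 bp in replicate 1 and 206 bp in replicate 2. Its upstream peak had a value of 6.57 and 7.25 and its downstream peak 18.7 and 13.1, and the downstream peak was 3973 and 3185 bp wide. Ftl1, the ferritin light chain, had gaps of 414 and 399 bp, upstream values of 4.31 and 4.19 and downstream values of 11.3 and 12.7. In both genes the downstream value was the higher in both replicates, as at 55.2% of all members. The values of the replicates on each side did not overlap those on the other, which also held at Ppox below. The share of all members without such overlap was not counted.

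Ppox, which makes protoporphyrin, had gaps of 281 and 263 bp, with 8.25 and 10.3 upstream and 16.4 and 13.6 downstream. Fech, which inserts the iron, had gaps of 223 and 135 bp and nearly level flanks of 9.41 and 10.4 upstream and 9.84 and 11.8 downstream. Flvcr1, a heme exporter, had gaps of 272 and 263 bp and level flanks as well, with 12.7 and 9.51 upstream and 13.1 and 11.5 downstream. Cpox, which acts before Ppox, had gaps of 168 and 135 bp, but its downstream value was 6.23 in replicate 1 and 23.7 in replicate 2, where the nearest peak was 203 and 2516 bp wide. The size of its downstream excess therefore rests on replicate 2. Urod, whose divergent neighbour Hectd3 starts 860 bp away, had gaps of 142 and 65 bp and was the only member of the list whose order differed between replicates, with 12.5 and 15.3 upstream and 14.3 and 11.5 downstream.

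The red cell membrane genes described here leaned downstream. These 5 members were Add1 of the membrane skeleton, Epb41, which ties the skeleton to the membrane, Tmod3, which caps actin, Bsg, the carrier of the Ok blood group, and Kel of the Kell blood group. In each, the downstream value was the higher in both replicates, against 55.2% of all members. Epb41 had gaps of 352 and 343 bp, upstream values of 5.93 and 2.88 and downstream values of 14.2 and 15.9. Add1 had gaps of 404 and 184 bp, with 6.96 and 9.78 upstream and 19.8 and 13.6 downstream. The other three had mean gaps between 78.5 and 216.5 bp.

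Of the erythroid transcription factors, Nfe2 and E2f4 were members and 10 of 18 had a covered start, Klf1 and Tal1 among them. Nfe2, the p45 subunit that binds globin enhancers, had gaps of 460 and 360 bp that reached 405 and 325 bp upstream, with values of 4.20 and 4.62 upstream and 4.40 and 7.25 downstream. E2f4, a cell cycle repressor required for red cell maturation, had gaps of 182 and 61 bp and an order of flanks that differed between replicates.

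Of 10 globin genes, 2 were members, and their flanks were weak. Hbb-bt, an adult β-globin gene, had a gap of 228 bp in each replicate. Its upstream value was 4.18 in replicate 1 and 3.38 in replicate 2, and its downstream value 4.99 and 5.11. Hba-a1 (5' end at position 32283672 of chromosome 11), an adult α-globin gene, had gaps of 1460 and 1008 bp, with 3.62 and 2.90 upstream and 5.61 and 4.25 downstream. The downstream peak of Hba-a1 began 735 and 748 bp after the start, near the end of this short gene. Both genes have a near-identical copy beside them, so their values are uncertain.

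**Figure D4:**
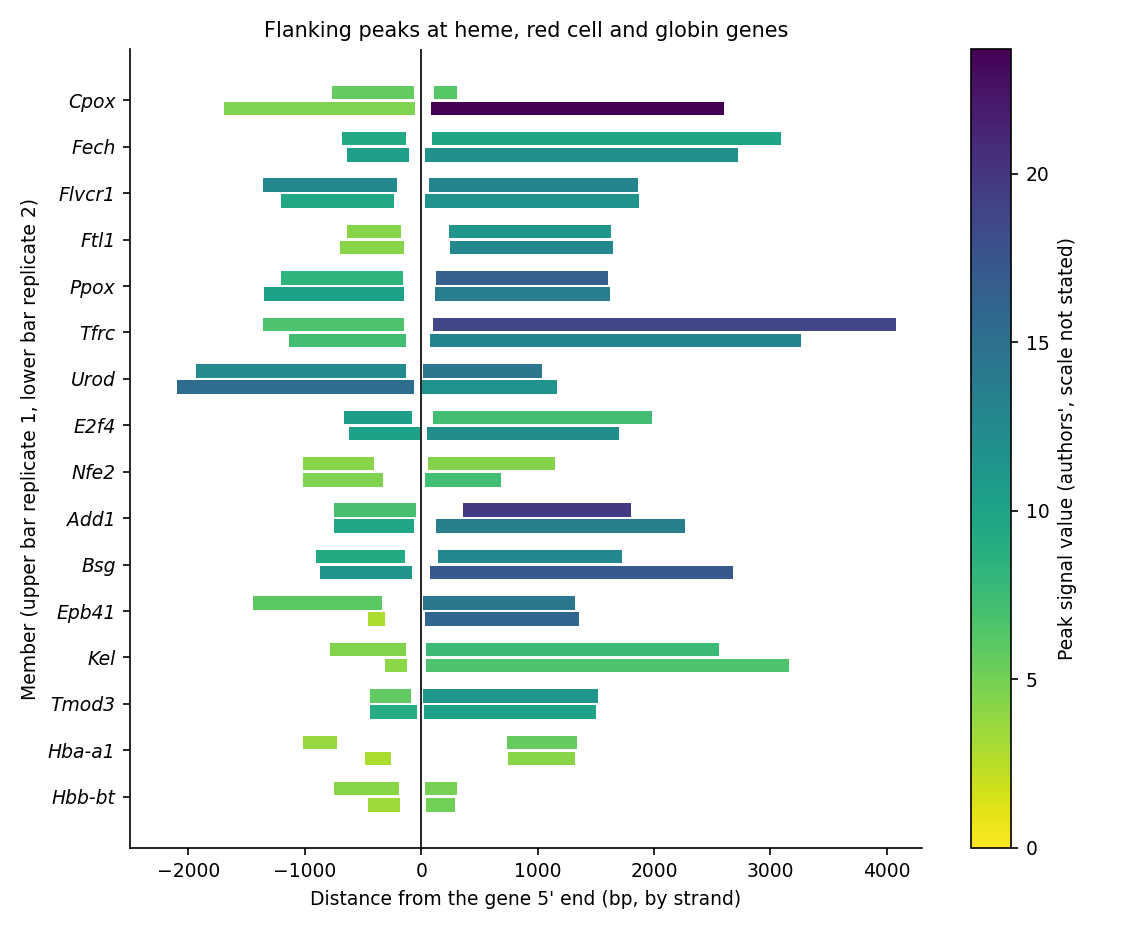
Nearest peak on each side of the 5' end (x axis, bp, read along the strand) at 16 members of the heme and iron, erythroid factor, red cell membrane and globin lists (y axis, upper bar replicate 1, lower bar replicate 2), coloured by the authors' signal value. The downstream peaks of Tfrc are the widest of the set at 3973 and 3185 bp, and those of Cpox differ between replicates in width (203 and 2516 bp).

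Chromatin writers and erasers held 18 members. Of these, 13 had the higher value downstream in both replicates, against 55.2% of all members. Among the methyltransferases, Kmt2a, the MLL1 enzyme that itself writes H3K4 methylation, had gaps of 619 and 382 bp, with 9.33 and 15.9 upstream and 12.4 and 20.7 downstream. Kmt2c, the MLL3 enzyme of enhancers, had gaps of 285 and 215 bp, with 9.29 and 12.1 upstream and 14.7 and 22.4 downstream. Setd2, the H3K36 methyltransferase, had gaps of 233 and 134 bp, with 8.24 and 13.6 upstream and 10.2 and 27.6 downstream. Kmt5c, an H4K20 methyltransferase, had the widest gaps of the list at 778 and 653 bp, with 2.08 and 1.81 upstream and 9.57 and 5.99 downstream.

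Among the demethylases, Kdm1a (LSD1, which removes H3K4 methylation) had a gap of 588 bp in replicate 1 and 161 bp in replicate 2. Its upstream values were 3.90 and 3.36 and its downstream values 13.7 and 18.1, so the downstream peak was the stronger in both although its edge moved from 441 to 30 bp. Kdm1b, its paralogue, had gaps of 321 and 336 bp and opposite orders, with 13.2 and 7.76 upstream and 5.82 and 16.1 downstream. Of the deacetylases, Hdac2 had gaps of 373 and 81 bp, with 4.93 and 6.08 upstream and 19.1 and 14.7 downstream, while Hdac6 and Hdac11 had log2 ratios between 0.23 and 0.58. Kat7, an acetyltransferase, was the only one of the 18 with the higher value upstream in both replicates, at 10.1 and 8.29 against 5.03 and 7.04 downstream. The remaining members, Kat2a, Kat8, Kdm3a, Kdm4a, Kdm4b, Kdm4d, Kdm7a and Setd3, had mean gaps between 70.5 and 267.5 bp, except Kdm4b with gaps of 637 and 363 bp.

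Histone genes had wider gaps than any list of more than 2 members, and the gap commonly ran through most of the gene. These are the short genes that are switched on in S phase to package new DNA, and they stand in clusters on chromosomes 13 and 3. Of the 42 histone members, 38 lay on chromosome 13. The median gap was 583.5 bp in replicate 1 and 618 bp in replicate 2, against 220 and 170 bp over all members. Of the 106 members with a gap over 500 bp in both replicates, 26 were histone genes. By family, 10 of 17 H2ac genes, 12 of 16 H2bc genes, 8 of 12 H3c genes and 8 of 12 H4c genes were members, and 4 of 10 H1f genes, a list by name that also holds linker histones outside S phase. The upstream edge lay a median of 191 bp before the start in replicate 1 and 228.5 bp in replicate 2, and the downstream edge 372 and 367 bp after it. The genes under 1000 bp long, 40 of the 42, had a median length of 485 bp. In these, a median of 78.6% of the gene in replicate 1 and 77.7% in replicate 2 lay before the downstream peak. The flanks did not lean downstream, with 9 of 42 higher downstream in both replicates and 19 higher upstream, against 55.2% and 18.02% of all members. Of the 42, 16 form 8 pairs that share a gap, whose orders mirror each other by construction. Some peaks also serve as the downstream flank of 1 gene and the upstream flank of the next. The peak between H2ac10 and H3c8, with values of 10.8 and 8.21, is an example. The 42 are therefore not separate pairs of flanks.

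Divergent H2A and H2B pairs had some of the widest histone gaps, as did H4c3 with 818 and 1205 bp. In 8 pairs, whose starts lie 164 to 249 bp apart, the gap ran across both starts and into both genes, from 938 to 1067 bp in replicate 1 and from 919 to 1040 bp in replicate 2. H2ac7 and H2bc7 shared a gap of 980 and 957 bp, which reached 435 and 420 bp into H2ac7 (535 bp long) and 372 and 364 bp into H2bc7 (448 bp long). H3 genes, which stand alone, had narrower gaps of 413 to 562 bp in replicate 1 and 420 to 616 bp in replicate 2. H1f2, whose sequence is given above, had gaps of 372 and 360 bp, of which 300 and 283 bp lay after the start.

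Histone genes exist in many near-identical copies, and sequence that occurs more than once was more frequent in their gaps than beside them. Repeated sequence was counted as bases whose surrounding 31-base string occurs again in the mm9 genome, to which the promoter was matched exactly. In 38 histone members, 53.5% of the bases in the gap were repeated, against 7.69% of the 400 bases next to it on each side. In 1178 other members the shares were 4.33% and 2.51%. Around 1990 covered starts, 0.846% of bases from 120 before to 60 after the start were repeated. H2ac7 stood at 63.4% and H3c13 at 73.2%, while H1f1, H1f4 and H2bc18, whose gaps were among the narrowest of the list, stood at 0. The share did not simply follow gap size. H4c3, with gaps of 818 and 1205 bp, stood at 21.9%, and H4c1, with 758 and 763 bp, at 29.0%. How reads from repeated sequence were placed is not stated in the labels or headers, so its part in the histone gaps was not tested, and their values are uncertain.

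**Figure D5:**
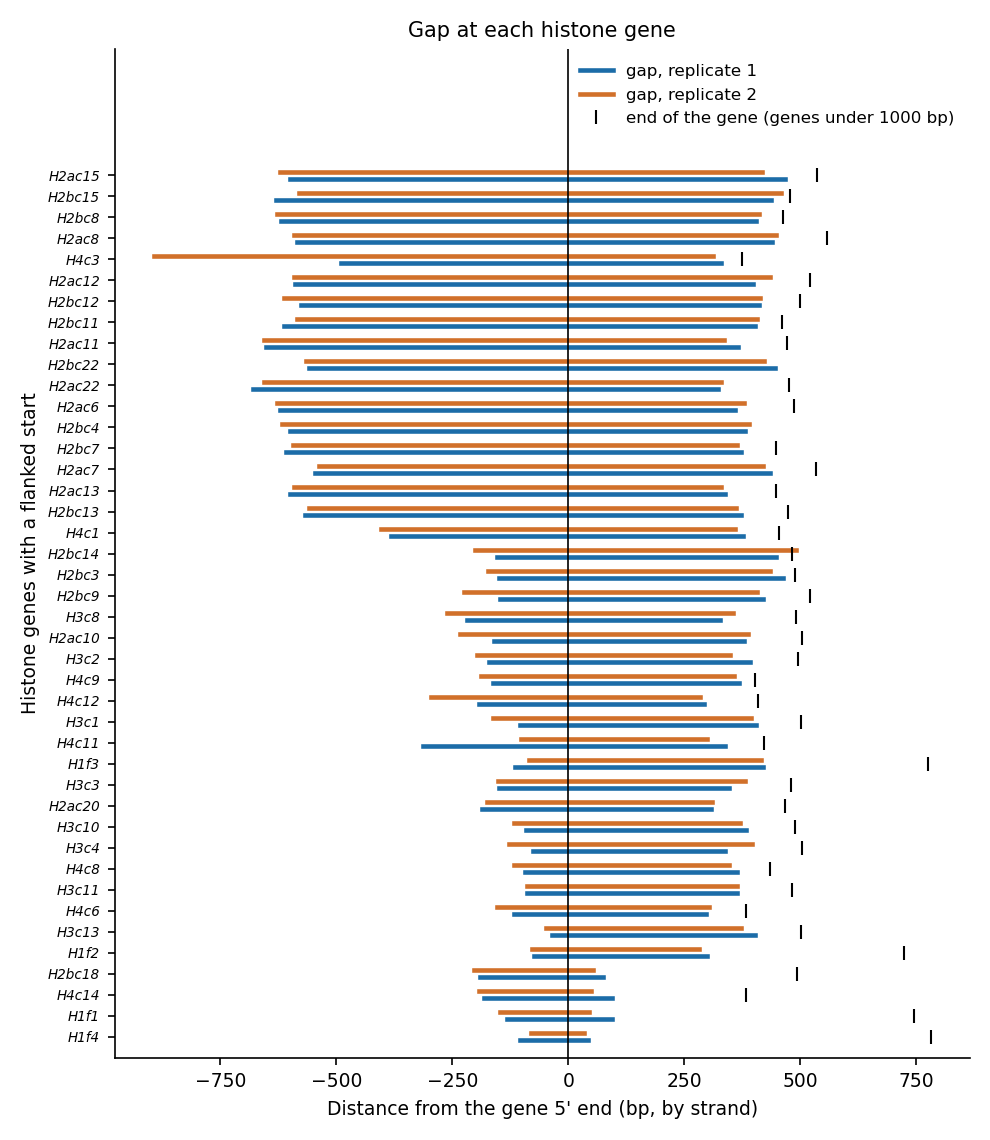
Gap at each of the 42 histone members (y axis, ordered by mean gap) as a line from the upstream to the downstream edge relative to the 5' end (x axis, bp, read along the strand), blue for replicate 1 and orange for replicate 2. Ticks mark the end of the 40 genes under 1000 bp, and most gaps end shortly before it.

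Outside the histone list, repeated sequence was rare but marked a few wide gaps. No base of the gap was repeated at 1080 of the 1178 members outside the list with a matched promoter (91.7%). With histone genes included, this held at 1083 of 1216 members (89.1%). Those 1083 had median gaps of 213 and 167 bp, against 220 and 170 bp over all members. The downstream value was the higher in both replicates at 56.0% of them, against 55.2% of all members. Whether repeated sequence bears on gap size or on the order of the flanks was not tested. More than 50% of the gap was repeated at 45 members, 22 of them outside the histone list. Outside that list, 35 members with a gap over 500 bp in both replicates had a matched promoter. No base of the gap was repeated at 17 of them, and more than 50% at 6. Mterf1a, a mitochondrial transcription factor with a close paralogue, had gaps of 522 and 464 bp in which every base of the shared part was repeated. Bex4 and Bex3, members of an X-linked gene family, stood at 97.5% and 81.6%, with gaps of 650 and 444 bp and of 751 and 705 bp. Mterf1a, Bex4 and Bex3 were singled out after their values were seen.

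The widest gaps of all were often drawn around a 5' end that the promoter table does not use. Psen2 (5' end at position 180263467 of chromosome 1, GRCm38), a subunit of γ-secretase, had gaps of 1865 and 1777 bp. Its upstream peak had values of 17.4 and 12.6 and its downstream peak 2.75 and 6.08. Polg, the mitochondrial DNA polymerase, had gaps of 1779 and 1375 bp, Plscr2, a phospholipid scramblase, 1937 and 1159 bp and Ppp1r12c, a regulator of myosin phosphatase, 1482 and 1532 bp. Nudt9, which cleaves ADP-ribose, had 1342 and 1377 bp, and 2510039O18Rik had 1375 and 1106 bp. Of the 8 widest, Hba-a1 included, 7 had a table start, and it lay in the gap of both replicates at Hba-a1 and Sp1 alone. Sp1, the factor that binds GC boxes, had gaps of 1340 and 997 bp with nearly level flanks of 6.95 and 8.53 upstream and 6.43 and 6.57 downstream. Over the 80 members outside the histone list with a gap over 500 bp in both replicates, a table start lay in the gap at 55 of 71 (77.5%), close to the 76.7% over all members.

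The narrowest gaps, chosen by their mean over both replicates, were near the 37 bp floor of the peak lists. Fcsk, a fucose kinase, had gaps of 42 and 47 bp, Zfp605 47 and 50 bp, Cog6, of the Golgi tethering complex, 38 and 58 bp and Thoc2, of the mRNA export complex THO, 60 and 38 bp. Sec61b of the translocon had 43 and 56 bp and Myo6, an unconventional myosin, 42 and 58 bp. At Fcsk the start lay 20 and 28 bp from the upstream peak and 23 and 20 bp from the downstream peak. A shift of the annotated start by that much would have placed it under a peak.

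Some members stood between 2 strong peaks. Isoc1 had 23.8 and 23.3 upstream and 23.2 and 22.2 downstream, across gaps of 131 and 65 bp. Ubap2l, a protein of stress granules, had 22.9 and 24.6 upstream and 21.9 and 17.0 downstream, across 311 and 245 bp. Capzb, which caps actin filaments, had 17.6 and 18.6 upstream and 18.5 and 25.6 downstream, across 261 and 207 bp. Zfp236, Golt1b and Nt5dc1 followed, with values between 13.9 and 21.5 on both sides. Across members, gap size and the value of the weaker flank had a Spearman correlation of −0.17 in replicate 1 and −0.26 in replicate 2, which is weak.

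The 6 steepest downstream leans were chosen by the ratio of downstream to upstream value. That their upstream peaks were faint in both replicates is therefore in part set by the choice. Fam117a had 2.15 and 2.88 upstream and 20.9 and 15.8 downstream, a log2 ratio of 3.28 in replicate 1 and 2.46 in replicate 2. Top1, DNA topoisomerase I, had 3.15 and 4.77 upstream and 27.99 and 16.5 downstream. Gatad2a, a subunit of the NuRD remodelling complex, had 2.99 and 4.97 upstream and 21.1 and 24.4 downstream. Agfg2, Map3k3 and Rbm17, a splicing factor, completed the 6, with log2 ratios between 2.10 and 3.15. In all 6, a table start lay in the gap of both replicates, as it did at 76.7% of all members with a table start.

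Psen2, described above, was among the 6 steepest upstream leans. Besides Psen2, they were at 2310009B15Rik, 1700029J07Rik, Syngr4, 4933405L10Rik and Catspere2, with log2 ratios between −2.28 and −1.52. Syngr4, of the synaptogyrin family, had 13.1 and 15.2 upstream and 3.51 and 4.43 downstream, and its divergent neighbour Tmem143 starts on the side of the stronger peak. 1700029J07Rik and 4933405L10Rik likewise face divergent neighbours, Ufsp2 and Enkd1, while Psen2, 2310009B15Rik and Catspere2 had none. Over all members, 18.7% had a divergent neighbour. Whether such neighbours bear on these leans was not tested. A table start was known for 5 of the 6 and lay in the gap of both replicates at 2, against 76.7% over all members with a table start.

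The 1000 bp limit was missed by 1 distance in 1 replicate at 140 starts. Just inside it were Psen2, with a flank 1000 bp from the start, Plscr2 at 998 bp and Nr2c2 at 981 bp. Just outside it were Efna1 at 1018 bp, Cldn3 at 1039 bp and Slc48a1, a heme transporter, at 1061 bp. At Nr2c2 the downstream edge lay 981 bp away in replicate 1 and 17 bp away in replicate 2, so that the gap was 1086 and 96 bp.

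The authors' other peak sets agreed on mm10 and differed on mm9. The set called on pooled alignments covered 76 of the 2753 starts and flanked the other 2677 (97.2%), with a median gap of 176 bp. The replicated set, which derives in part from it, covered 76 and flanked 2676. The older set on mm9, read by gene symbol for 2394 members, covered 2145 of them (89.6%) with peaks of a median width of 2316 bp, about the span of both flanks and the gap in replicate 1 (median 2085 bp) and replicate 2 (2160 bp). It covered 93.5% of 3791 starts that are covered on mm10. Peaks of the older set were never closer than 200 bp to each other, against 37 bp in the mm10 sets.

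Replicate 1 had 48026 peaks and replicate 2 had 46950. The labelled cell type was checked on markers at their 5' ends. A peak lay within 1000 bp in both replicates at 14 of 15 erythroid markers, 4 of them members (Hba-a1, Hbb-bt, Nfe2 and Tfrc), and Gata1 was the marker without one. The counts were 0 of 9 granulocyte and macrophage, 0 of 6 B cell, 0 of 7 T and NK cell, 4 of 5 megakaryocyte and 1 of 6 non-blood markers, the last being Col1a1. Members lay on chromosomes 1 to 19 and X, at 21.9% to 30.2% of the genes with a peak on each, and none of the 4 such genes of chromosome Y was a member.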

How the data were processed

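H3K4me3 was measured by ChIP-seq in 2 samples of 1 group of MEL cells. The authors deposited called peaks per replicate, per pooled alignments and as a replicated set on mm10, and an older set on mm9. Per the file headers and deposited notes, each replicate's set came from its own alignments. Aligner, peak caller and threshold are not given in the sources used here. Per peak, the deposited signal value is the authors' own, with its scale not stated, and the deposited p-value and q-value are on a −log10 scale. The q-value was used for 1 alternative alone.

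The members and the gene lists were chosen with earlier results of these data known. Only chromosomes 1 to 19, X and Y were used, with positions counted from 1. The 5' ends were those of RefSeq genes on GRCm38.p6, the assembly behind mm10, with 1 end per gene. Strand came from the RefSeq promoter table for 17492 genes, and from GENCODE M1 by symbol for 3649 and by synonym for 394. The other 352 of 21887 genes were left out. Both sources gave the same strand for 99.7% of 14743 genes. The flank on a side is the peak with the nearest edge, and the gap is the number of bases between both flanks.

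Named are the 8 widest and 6 narrowest mean gaps, the 8 highest weaker flanks, the 6 highest and 6 lowest mean log2 ratios with the same sign in both replicates, all members of the heme and iron, erythroid factor, red cell membrane, globin and chromatin lists, up to 2 by name of other lists, and 3 genes on each side of the 1000 bp limit. Not all of these are described, and 1 of them is not reported here. Other named genes were chosen after their values were seen. Motifs were searched on both strands. Repeated sequence was counted with 31-base strings in NCBIM37 (mm9), for members and covered starts whose promoter matched it at 1 place (99.8% of 3214).

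The files hold no read counts, so depth is unknown. Precision is given as the spread of the 2 replicates and as 95% Wilson intervals, which cover counting error only. The rule was checked on simulated peaks with planted gaps, all of which it recovered. Python 3.11.15, pandas 2.3.3 and numpy 2.4.6 were used.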

Additional observations from a re-analysis of the deposited data

How the results depend on the processing

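Of the 2753 members, 2620 to 2794 were found with flanks within 500 or 2000 bp or with minimum −log10 q values of 2 or 5, and the pooled and replicated sets alone gave 3313 and 3227. With each replicate left out in turn the count was 3041 to 4579, the higher without replicate 2. With no peak within 50 bp of the 5' end it was 941, with a median gap of 265 bp, a downstream value higher at 57.2%, a median log2 ratio of 0.39 and a wider downstream flank at 65.4%. The older mm9 set alone flanked 173 of 22089 starts. Other settings kept the mean of the median gaps between 166 and 200 bp.

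The share with the higher value downstream was 69.7% in the pooled and 69.8% in the replicated set and 64.03% to 73.1% with each replicate left out, since fewer sets must share the order. It was 58.5% with gaps that held starts of both strands left out and other shared gaps counted once. It was 59.1% with the highest peak on a side and 59.8% without divergent neighbours. The log2 ratio was 0.40 in the first of these settings and 0.42 without divergent neighbours. The share with the wider downstream flank was 77.4% and 77.8% in the pooled and replicated sets. It was 71.1% to 78.6% with each replicate left out, 74.5% with summed widths and 73.4% without divergent neighbours. With gaps that held starts of both strands left out and other shared gaps counted once, it was 71.3%. No setting reversed a direction. RefSeq table starts and the split by divergent neighbour were chosen after seeing the data. Depth is unknown, and its part in the peak calls, and so in the counts, gaps and flanks given here, was not tested. The labels give 1 group, so no paired analysis was possible because there is no second group to pair with.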
